A study of Mus musculus with 8 samples.

Results

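Antigen presentation by major histocompatibility complex (MHC) molecules was followed in cultured mouse mast cells through 10 genes, H2-K1, H2-D1, B2m, Tap1, Psmb8, Psmb9 and Nlrc5 of the class I pathway and H2-Aa, Cd74 and Ciita of the class II pathway. They were found by gene name among the 55359 genes of the count table. Total RNA was sequenced from 8 untreated cultures of peritoneal mast cells (PMCs) from wild-type C57BL/6x129/Sv mice. PMC-303 and PMC-306 are permanently growing lines that arose spontaneously in ageing cultures, and each is represented by 1 library. The other 6 libraries are primary WT PMCs, 3 labelled female and 3 labelled male biological replicates, which were kept for at most 8 weeks. IL-3 was given at 30 ng/ml to all cultures, but the lines received 10% FCS and 5 ng/ml SCF where primary cultures received 15% FCS and 20 ng/ml SCF, so that effects of medium and of transformation cannot be told apart. The ages of the mice are not given in the sources used here.

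MHC class I molecules display peptides from the cytosol on almost every nucleated cell. A polymorphic heavy chain, encoded by H2-K1 or H2-D1 in these strains, pairs with the invariant light chain β2-microglobulin, and the pair is unstable at the cell surface without a peptide. Proteasomes cut the peptides, the transporter TAP carries them into the endoplasmic reticulum, and tapasin and ERAP1 help to select and trim them there. MHC class II molecules present peptides from endosomes and belong mainly to dendritic cells, B cells and macrophages. The transactivator NLRC5 acts on class I promoters and CIITA on class II promoters, both through a complex that sits on conserved promoter elements called the X and Y boxes. Mast cells are known to carry class I constitutively and class II mainly after stimulation.

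Library totals lay between 15918758 and 24180226 estimated counts, so that 3 counts, the upper limit that a count of 0 allows, corresponded to between 0.123 and 0.187 CPM (counts per 1000000 counts, with library sizes corrected by the TMM method, which uses a trimmed mean of log ratios). This limit covers counting error only. All 12 mast cell markers had counts in all 8 libraries, although Mcpt4 had 1 count in PMC-306, below the limit of 3 counts. Mcpt4 had 45 counts in PMC-303 and 720 to 8228 counts in the primary cultures. The 12 markers summed to 43700 CPM in PMC-303, 40327 in PMC-306 and 53709 to 83330 CPM in the primary cultures. Kit, Fcer1a, Mcpt4, Tpsb2 and Il1rl1 lay below every primary culture in both lines. Cpa3, the highest marker, lay inside the primary range in both (23601 and 22835 against 21762 to 38179 CPM). Gata2 had 582 and 662 CPM in PMC-303 and PMC-306 against 495 to 600 CPM, and Mitf 227 and 252 against 200 to 243 CPM. Hdc had 42.4 CPM in PMC-303, 7.61 in PMC-306 and 6.19 to 18.1 CPM in the primary cultures. The 8 dendritic cell markers summed to between 0.0439 and 1.26 CPM and the 6 granulocyte markers to at most 0.344 CPM. Of the B cell markers, Ighd was at 0 in every library and Ighm had between 0.577 and 21.4 CPM. The 11 macrophage markers summed to 452 CPM in PMC-306, of which Adgre1 made up 426 CPM, against 8.93 CPM in PMC-303 and 7.75 to 68.9 CPM in the primary cultures, while C1qb and Timd4 were at 0 in every library and Csf1r did not exceed 0.23 CPM. Icam2, also on that list, had 10.6 CPM in PMC-306 and at most 1.77 CPM elsewhere, and Cd68 had 13.9 CPM in PMC-306, 17.8 CPM in male culture 2 and 1.48 to 4.73 CPM in the other 6 libraries. Lyz2, on the same list, went the other way, with 0.247 CPM in PMC-303, 1.13 CPM in PMC-306 and 1.18 to 18 CPM in the primary cultures. The 8 T and NK cell markers summed to 4.14 CPM in male culture 1 and to between 0.689 and 1.98 CPM in the other 7 libraries. In male culture 1 Cd4 had 3.22 CPM and Cd3g and Lck had 0.255 CPM (5 counts) each. Cd3e, Cd3d, Cd8a and Klrb1c were at 0 there, and Ncr1 had 0.409 CPM, its lowest level in the 8 libraries. In bulk RNA fewer cells of a type and less RNA per cell cannot be told apart.

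The sequences in front of these genes show which of them carry the X and Y box letters through which NLRC5 and CIITA are known to act. RefSeq (GRCm38.p6) held a promoter for 7 of the 10 members, H2-K1 with 2 starts, and none for Nlrc5, Cd74 and Ciita. The 200 bases before each start were searched on both strands. TGACG, called the X box core here, is the core of the CREB site within the X box, whose RFX site was not searched. CCAAT was taken as the Y box (ATTGG on the other strand). The other patterns were GAAA repeated after any 2 bases, a core of the interferon-stimulated response element, and TTCNNNGAA, a core of the gamma-activated site. The 4 genes below carried an X box core followed by a Y box after a gap of 15 to 25 bases. Each line reads 5′ to 3′ along the gene up to the base before its start, and capitals mark all matches.
H2-K1 (chr17:34000334-34000533, minus strand): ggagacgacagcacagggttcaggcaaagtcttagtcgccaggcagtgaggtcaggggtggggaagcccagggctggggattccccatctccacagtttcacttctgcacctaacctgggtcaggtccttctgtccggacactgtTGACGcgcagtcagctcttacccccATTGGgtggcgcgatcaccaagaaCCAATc
H2-D1 (chr17:35262894-35263093, plus strand): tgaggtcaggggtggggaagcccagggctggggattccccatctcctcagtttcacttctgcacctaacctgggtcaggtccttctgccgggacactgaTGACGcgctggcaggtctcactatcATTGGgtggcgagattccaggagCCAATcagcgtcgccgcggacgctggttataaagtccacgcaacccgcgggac
B2m (chr2:122147487-122147686, plus strand): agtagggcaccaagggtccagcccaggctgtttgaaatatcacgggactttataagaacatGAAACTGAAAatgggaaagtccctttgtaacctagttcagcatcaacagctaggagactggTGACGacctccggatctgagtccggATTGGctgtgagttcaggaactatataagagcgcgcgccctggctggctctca
H2-Aa (chr17:34287824-34288023, minus strand): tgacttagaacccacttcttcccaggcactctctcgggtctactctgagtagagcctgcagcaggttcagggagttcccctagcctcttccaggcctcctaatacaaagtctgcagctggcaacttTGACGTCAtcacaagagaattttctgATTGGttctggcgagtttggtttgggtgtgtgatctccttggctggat

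In H2-K1, H2-D1 and B2m the gap between TGACG and ATTGG was 20 bases. H2-Aa, whose 8 capital letters hold TGACG on both strands in overlap, had gaps of 21 and 18 bases. Such a pair was found in 0.615% of the 32851 RefSeq windows of this length, TGACG alone in 15.7% and CCAAT alone in 29.3%. The exact response element core occurred in B2m, 139 bases before the start, and in 2.27% of all windows. The search counted exact matches only, so response elements with other letters were missed. The H2-K1 and H2-D1 windows hold tttcacttct, which is close to this core on the other strand but no exact match. The gamma-activated site core occurred in Psmb8, 97 bases before the start, and in 5.49% of all windows. Tap1 and Psmb9, whose windows overlap because the genes are read in opposite directions from a shared region, each held TGACG but no pair. These matches describe letters and not binding.

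**Figure D1:**
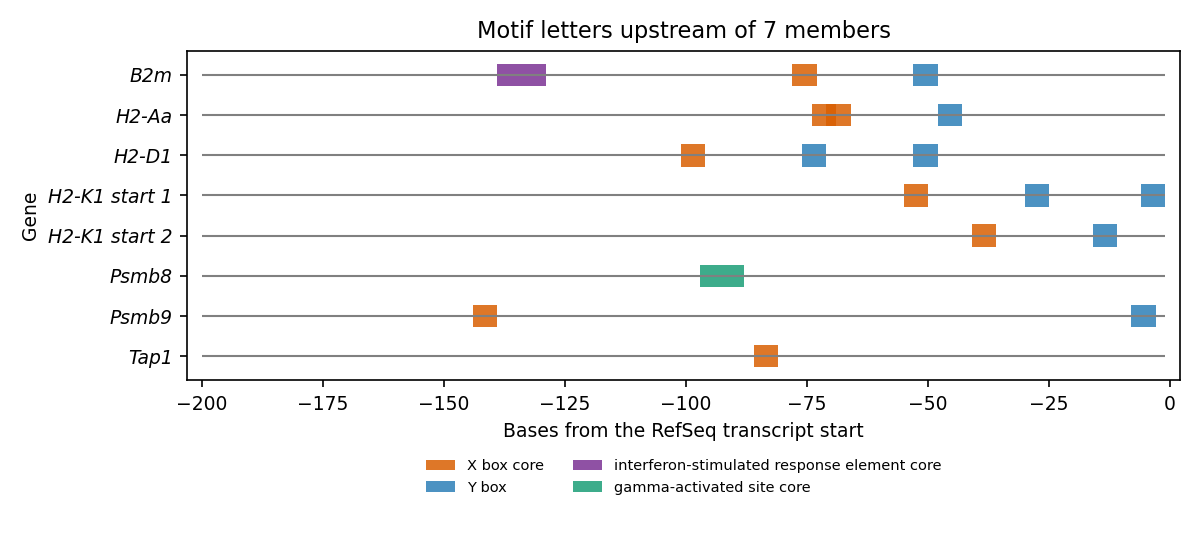
Positions of the motif letters in the 200 bases before the RefSeq start of 7 members, with the distance from the start in bases on the horizontal axis and 1 line per start. H2-K1 (both starts), H2-D1 and B2m show an X box core and a Y box at the same gap of 20 bases, and Psmb8 shows neither.

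Of all members, the light chain passed the test of both lines against primary PMCs. B2m (ENSMUSG00000060802, chromosome 2, 121977957 to 121983594 on GRCm39, as all gene coordinates) had 243 CPM in PMC-303 and 281 in PMC-306. The female primary cultures had 732, 678 and 454 CPM and the male cultures 1482, 853 and 665 CPM, a primary mean of 811 ± 354 CPM (SD, n = 6). Both lines lay below every primary culture, at 29.9% and 34.7% of the primary mean. When both lines together were tested against the 6 primary cultures with limma on log2(CPM + 0.1), B2m fell by 1.54 on the log2 scale (SE 0.36, 95% interval from -2.36 to -0.72), 2.90-fold, with an adjusted p of 0.0116. It was 1 of 9 members tested that passed, whereas 33.9% of all 14529 genes passed in either direction, 18.3% as higher and 15.5% as lower in the lines. Leaving out male culture 1, the highest, gave a log2 difference of -1.34 (adjusted p = 0.00441 by limma), and leaving out PMC-303 gave -1.43 with an adjusted p of 0.0717, which does not pass. With 1 library per line and no label naming the animals behind the lines, this p measures the spread between these libraries. The levels of several mast cell markers, though not of all, also differed between lines and primary cultures as given above. Their part was not tested.

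The heavy chains H2-K1 (chromosome 17, 34214987 to 34219321) and H2-D1 (chromosome 17, 35481691 to 35486475) did not pass that test. H2-K1 had 233 CPM in PMC-303 and 272 in PMC-306, and 307, 277 and 223 CPM in the female and 499, 314 and 285 CPM in the male primary cultures. Both lines were inside the primary range, and the log2 difference was -0.29 (95% interval from -0.86 to 0.28, adjusted p = 0.409 by limma). H2-D1 had 466 CPM in PMC-303, below every primary culture, and 593 CPM in PMC-306, against 605, 702 and 528 CPM in the female and 883, 766 and 817 CPM in the male cultures. Its log2 difference was -0.43 (95% interval from -0.88 to 0.03, adjusted p = 0.132 by limma), and it passed without female culture 3 (-0.51, adjusted p = 0.0497 by limma). Without PMC-303 its log2 difference was -0.25 (adjusted p = 0.513 by limma), and against female cultures only it was -0.21 (adjusted p = 0.462 by limma). The intervals leave room for a fall of H2-K1 or H2-D1 of up to 0.86 and 0.88 on the log2 scale, whereas the interval of B2m starts at a fall of 0.72. Of the windows of 50 bases in the transcript of H2-K1, 8.79% also occur in transcripts of other genes, and of those in H2-D1 14.2%, so that reads of related heavy chains may have been divided among them. B2m shared 0 of its 1037 windows.

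Compared per transcript length, in TPM (transcripts per 1000000), B2m lay below the sum of both heavy chains in the lines and above it in every primary culture. The ratio of B2m to the sum of H2-K1 and H2-D1 was 0.682 in PMC-303 and 0.623 in PMC-306. It was 1.56, 1.42 and 1.19 in the female and 2.04, 1.57 and 1.24 in the male primary cultures. In this ratio both lines lay below every primary culture, as for B2m itself and for 20.1% of all genes tested. No test was made on this ratio of members. The 2 heavy chains remained close to each other per length, with ratios of H2-D1 to H2-K1 TPM of 0.997 in PMC-303, 1.03 in PMC-306 and 0.882 to 1.43 in the primary cultures.

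**Figure D2:**
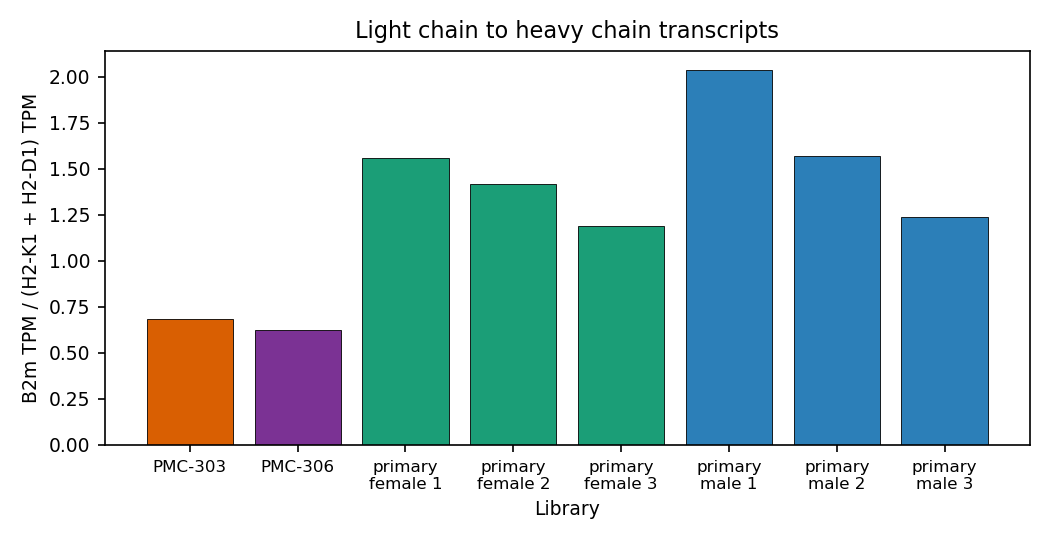
Ratio of B2m TPM to the summed TPM of H2-K1 and H2-D1 in each of the 8 libraries (1 bar per library, no error bars). The bars of PMC-303 (0.682) and PMC-306 (0.623) are below that of the lowest primary culture (1.19).

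Among the members that supply peptides, the transporter subunit gene Tap1 (chromosome 17, 34405996 to 34416199) did not pass. It had 43.7 CPM in PMC-303, 54.1 CPM in PMC-306, 52.1, 39.4 and 41.3 CPM in the female and 72.3, 51.4 and 43.7 CPM in the male cultures, with a log2 difference of -0.01 (95% interval from -0.51 to 0.48, adjusted p = 0.974 by limma). Psmb8 and Psmb9, neighbours of Tap1, encode catalytic subunits that replace their constitutive counterparts in the immunoproteasome, which interferon-γ is known to induce. Psmb8 (chromosome 17, 34416690 to 34420428) had 74.4 CPM in PMC-303 and 127 in PMC-306, compared with 64.1, 63.3 and 52.8 CPM in the female and 89.4, 64.7 and 59.6 CPM in the male cultures. Psmb9 (chromosome 17, 34400960 to 34406738) had 12.6 CPM in PMC-303 and 25.5 in PMC-306, compared with 11.4, 8.57 and 7.44 CPM in the female and 16.5, 11.2 and 8.55 CPM in the male cultures. For both genes PMC-306 lay above every primary culture, while PMC-303 lay inside the primary range. Their log2 differences for both lines were 0.58 (SE 0.23, adjusted p = 0.0784 by limma) for Psmb8 and 0.80 (SE 0.34, adjusted p = 0.102 by limma) for Psmb9. Both passed without male culture 1, at 0.68 (adjusted p = 0.034 by limma) and 0.94 (adjusted p = 0.0467 by limma), and without PMC-303, at 0.97 (adjusted p = 0.0194 by limma) and 1.31 (adjusted p = 0.0383 by limma). Without PMC-306 they were 0.20 (adjusted p = 0.57 by limma) and 0.29 (adjusted p = 0.614 by limma). The summed level of the macrophage markers was also highest in PMC-306, mostly through Adgre1, while Lyz2 was below every primary culture there, as given above. The part of these markers was not tested.

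The class I transactivator Nlrc5 (chromosome 8, 95160984 to 95253900) was low and uneven in primary PMCs and nearly without reads in the lines. It had 1 count in PMC-303 and 1 count in PMC-306. The female cultures had 57, 2 and 4 counts (2.62, 0.0878 and 0.211 CPM) and the male cultures 158, 34 and 13 counts (8.07, 2.11 and 0.682 CPM). In CPM both lines were therefore below every primary culture, but female cultures 2 and 3 were close to them. In TPM PMC-303 (0.0284) and PMC-306 (0.035) lay inside the primary range, above female culture 2 (0.0204). By CPM PMC-303 stood at 1.79% of the primary mean (95% Poisson counting interval from 0.0454% to 9.98%) and PMC-306 at 2.14% (from 0.0541% to 11.9%). With this spread the log2 difference of -2.98 (SE 1.31, 95% interval from -5.97 to 0.01) did not pass, with an adjusted p of 0.114 by limma. Its size depends on the offset added to the CPM, and was -1.73 with an offset of 0.5 and -1.24 with an offset of 1. In the transcript table the single count of each line was assigned to a transcript that is not in GENCODE release M39, and the canonical transcript of Nlrc5 had 0 counts in both lines, 45.12, 0 and 4 in the female and 131.41, 32.42 and 9.56 in the male cultures. The median log2 fold over the 672 genes of chromosome 8 was 0.21 in PMC-303 and 0.02 in PMC-306, and over the 90 genes between the outermost MHC chain genes on chromosome 17 it was 0.00 and -0.05.

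**Figure D3:**
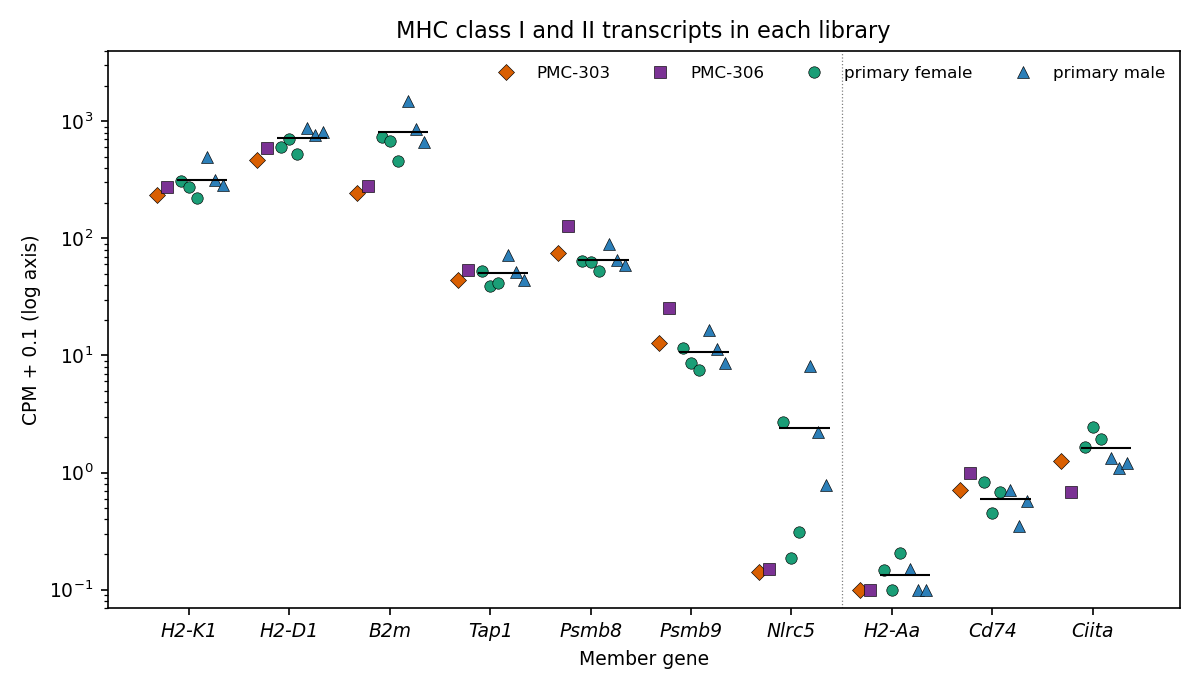
Level of each member as CPM + 0.1 on a log axis, 1 point per library, with a black line at the mean of the 6 primary cultures and class II members right of the dotted line. B2m and Nlrc5 of both lines lie below all primary points, Nlrc5 with 1 count in each line, while PMC-306 lies above all of them for Psmb8, Psmb9 and Cd74.

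Class II transcripts were scarce in all cultures. H2-Aa (chromosome 17, 34493404 to 34506798), the α chain, had 0 counts in both lines, 1, 0 and 2 counts in the female and 1, 0 and 0 counts in the male cultures. No fold was formed, as no library exceeded 3 counts. Cd74 (chromosome 18, 60936899 to 60945731), the invariant chain that guides class II molecules to endosomes, had 15 counts in PMC-303 and 18 counts in PMC-306 (0.617 and 0.884 CPM). It had 16, 8 and 11 counts in the female and 12, 4 and 9 counts in the male cultures (0.249 to 0.735 CPM), and its log2 difference of 0.54 (95% interval from -0.36 to 1.45) did not pass (adjusted p = 0.327 by limma). The summed level of the dendritic cell markers was also highest in PMC-306, at 1.26 CPM, of which Itgax made up 0.819 CPM. Xcr1, Clec9a and Cd209a were at 0 there, and Zbtb46 was higher in female culture 3 (0.158 CPM against 0.147 CPM). The part of these markers was not tested.

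Ciita (chromosome 16, 10297923 to 10347694) encodes the class II transactivator and had counts in every library, whereas H2-Aa had almost none. PMC-303 had 28 counts and PMC-306 12 counts (1.15 and 0.589 CPM). The female cultures had 34, 53 and 35 counts (1.56, 2.33 and 1.85 CPM) and the male cultures 24, 16 and 21 counts (1.23, 0.995 and 1.10 CPM). PMC-306 was below all primary cultures and PMC-303 inside their range, and the log2 difference of -0.74 (95% interval from -1.61 to 0.14) did not pass (adjusted p = 0.172 by limma). Of the 8 Ciita transcripts in the table, Ciita-201, which starts at position 10306143, held all counts in 7 libraries and 22.91 counts in male culture 1.

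Per single line, without a test, a gene was counted when its CPM + 0.1 differed 2-fold or more from the primary average and it lay outside the primary range. In PMC-303 this held for B2m and Nlrc5, 2 of the 8 members that reached 1 CPM in the line or in the primary mean, both lower, against 8.09% of 13024 genes that were lower and 10.4% that were higher. In PMC-306 it held for 4 of 8 members, with B2m, Nlrc5 and Ciita lower and Psmb9 higher, against 9.19% of 13064 genes that were lower and 10.2% that were higher. With an offset of 1 CPM it held for 3 members in PMC-306, without Ciita, and with TPM for 3, namely B2m, Psmb8 and Psmb9. Psmb8 reached 1.93-fold in PMC-306. The lines differed most from each other in Psmb9, Ciita and Psmb8, where the ratio of PMC-306 to PMC-303 was 2.03, 0.511 and 1.70. Of the members tested in both lines together, the median log2 difference was -0.29, and it was -0.01 over all genes. In CPM both lines lay below the lowest primary culture for B2m and Nlrc5 and above the highest for no member, which over all genes tested occurred in 20.1% and 23% of cases. In TPM both lines were inside the primary range for Nlrc5.

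**Figure D4:**
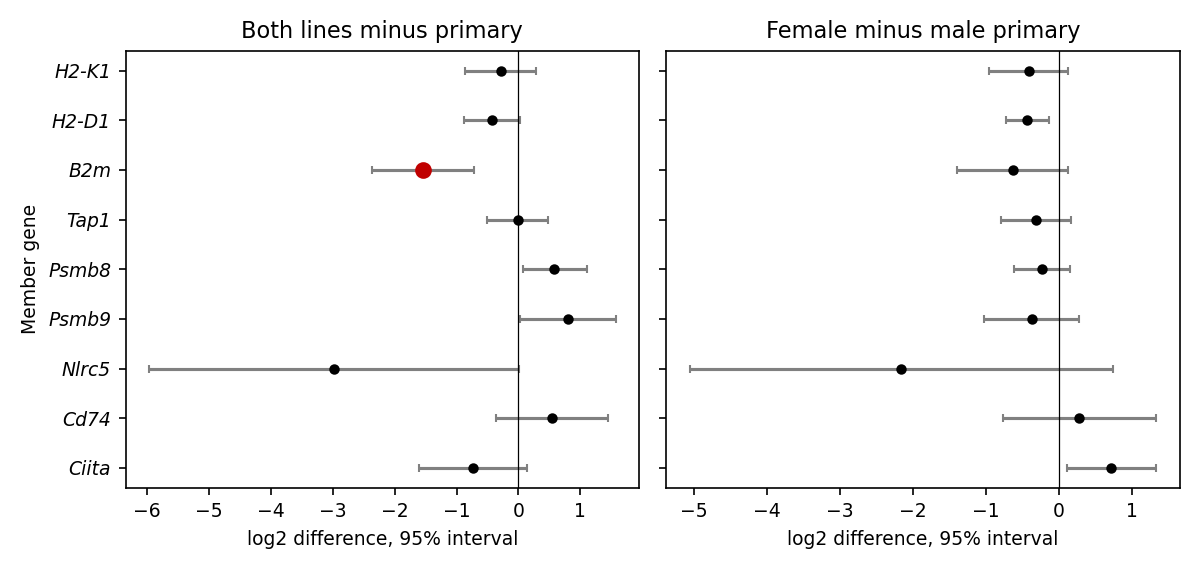
Log2 differences with 95% intervals from limma for the 9 members tested, for both lines minus primary cultures (left) and female minus male primary cultures (right). B2m in the left panel (red) is the point that passed, and the interval of Nlrc5 spans from -5.97 to 0.01.

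Between female and male primary cultures 0 of 9 members passed, as did 0.0438% of 13710 genes (6 genes). Voom also called 0 members. Without adjustment, 457 of all genes and 2 members had a p under 0.05 by limma. These were H2-D1, with a log2 difference female minus male of -0.43 (SE 0.12, unadjusted p = 0.0111 and adjusted p = 1 by limma), and Ciita, with 0.72 (SE 0.26, unadjusted p = 0.0274 and adjusted p = 1 by limma). The intervals were wide for other members, from -5.06 to 0.74 for Nlrc5 and from -1.40 to 0.13 for B2m.

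A single primary culture, male culture 1, had the highest primary level of all 7 class I members and of 0 of 3 class II members. Over all 12504 genes with a primary mean of at least 1 CPM, it was the highest in 15%. Several class I genes outside the members were also highest there, while H2-T23, H2-T24 and H2-Q10 were highest in other primary cultures. H2-Q4, a nonclassical heavy chain of the Q region, had 28 CPM there and 4.73, 0.923, 1.79, 4.97 and 1.84 CPM in female cultures 1 to 3 and male cultures 2 and 3. H2-Q6 had 8.54 CPM against 0.436 CPM or less in the remaining primary cultures, and H2-Q7 8.16 CPM against at most 0.821 CPM. H2-Q7 was at 2.56 CPM in PMC-306 and 0.143 in PMC-303. The Q genes are near copies. Other genes held 24.2% of the 50-base windows of H2-Q4, 33.1% of those of H2-Q6 and 40.2% of those of H2-Q7. Their individual levels are therefore uncertain. The order of the primary cultures by Nlrc5 was male 1, female 1, male 2, male 3, female 3 and female 2, and H2-Q4 followed it except that male 2 was above female 1. Among the other class I members, Tap1 had the same order as Nlrc5, and H2-K1, H2-D1, B2m, Psmb8 and Psmb9 had other orders. PMC-303 and PMC-306 had 4.16 and 9.33 CPM of H2-Q4, inside the primary range. A link of these genes to Nlrc5 was not tested. The T cell genes Cd4, Cd3g and Lck were also highest in male culture 1, with Cd4 at 3.22 CPM against at most 0.211 CPM elsewhere and Cd3g and Lck at 5 counts each against at most 2 counts. Of the other markers on that list, Cd3e, Cd3d, Cd8a and Klrb1c were at 0 there and Ncr1 was lowest there. The part of these markers was not tested.

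The other heavy chains were read from a list of 18 class I heavy chain genes, of which 10 were tested. H2-T23, which encodes Qa-1, the ligand of the inhibitory NK receptor CD94/NKG2A, fell from 395 ± 44.5 CPM (SD, n = 6) to 213 CPM in PMC-303 and 239 in PMC-306, by 0.80 on the log2 scale (SE 0.12, adjusted p = 0.00162 by limma). It was the 1 gene of the list that passed, against 33.9% of all genes tested, and 30.4% of its windows occur in other genes. H2-T22 had 46.7 and 48.0 CPM in PMC-303 and PMC-306 against 46.6 to 78.4 CPM and did not pass. H2-T10 had 21.5 CPM in PMC-303, 4.74 CPM in PMC-306 and 4.29 to 6.66 CPM in primary cultures, but 41.6% of its windows are shared, mostly with H2-T22. H2-T24 reached 27.4 CPM in female culture 3 and 21.0 CPM in PMC-303, H2-M3 ranged from 2.74 to 6.63 CPM and H2-Q10 from 0.106 to 1.22 CPM over the 8 libraries, and none of these passed. Of 7 class I-like molecules 3 were tested and 1 passed, against 33.9% of all genes tested. Mr1, which presents vitamin B metabolites to MAIT cells, fell by 3.21 on the log2 scale (SE 0.79, adjusted p = 0.0148 by limma), from 16.9 ± 2.56 CPM (SD, n = 6) to 0.37 CPM in PMC-303 and 7.02 in PMC-306.

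Of the 9 genes for the light chain and peptide loading, all of which were tested, 4 fell, 0 rose and 5 did not pass, with a median of -0.01, that of all genes. Of all genes tested 15.5% fell and 18.3% rose. Besides B2m the genes that fell were the peptide trimming aminopeptidase Erap1, the peptide editor tapasin (Tapbp) and its relative Tapbpl. Erap1 had 55.7 CPM in PMC-303, 68.9 CPM in PMC-306 and 80.8 to 99.4 CPM in primary cultures (log2 difference -0.50, adjusted p = 0.00784 by limma). Tapbp had 165 and 140 CPM in PMC-303 and PMC-306 against 177 to 213 CPM (log2 difference -0.34, adjusted p = 0.0218 by limma). Tapbpl fell from 12.6 ± 1.18 CPM (SD, n = 6), to 6.43 CPM in PMC-306 and 80.5% of that mean in PMC-303 (log2 difference -0.63, adjusted p = 0.0262 by limma).

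Proteasome genes did not move as 1 group. Of 5 genes for the immunoproteasome and the activator PA28, Psme1, an activator subunit, rose from 61.4 ± 2.97 CPM (SD, n = 6) to 81.3 and 86.4 CPM (log2 difference 0.45, adjusted p = 0.00192 by limma). Psmb10, the immunoproteasome subunit encoded outside the MHC, fell from 23.3 ± 3.19 CPM (SD, n = 6) to 14.1 and 17.6 CPM (log2 difference -0.55, adjusted p = 0.0259 by limma). Of 16 further proteasome and activator genes, which include subunits common to both proteasome forms, 13 rose, 0 fell and 3 did not pass. Their median log2 difference was 0.46. Of all genes tested 18.3% rose and 15.5% fell. Psma6 had 78.0 and 81.3 CPM in the lines against 45.8 to 54.3 CPM (log2 difference 0.65, adjusted p = 0.000428 by limma), and Psma4 had 118 and 114 CPM against 69.8 to 84.1 CPM (0.60, adjusted p = 0.000715 by limma). Psma1 and Psma3 followed with 0.54 and 0.52. Of the constitutive counterparts of the immunoproteasome subunits, Psmb5 did not pass (log2 difference 0.08, adjusted p = 0.646 by limma). Psmb6 and Psmb7 rose, by 0.42 and 0.50. Per length, the ratio of Psmb8 to its constitutive counterpart Psmb5 was 1.02 in PMC-303, 2.07 in PMC-306 and 1.01 to 1.69 in primary cultures. The ratio of Psmb9 to Psmb6 was 0.0957 in PMC-303, 0.237 in PMC-306 and 0.0777 to 0.166 in primary cultures. The ratio of Psmb10 to Psmb7 was 0.234 and 0.307 in PMC-303 and PMC-306 and 0.447 to 0.598 in primary cultures.

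In the class II list of 11 chains and chaperones 6 were tested, 1 rose, 1 fell and 4 did not pass, so that the share that passed is near the 33.9% of all genes. H2-Oa, a subunit of the DM inhibitor DO, rose from 0.481 ± 0.344 CPM (SD, n = 6) to 1.36 CPM in PMC-303 and 6.33 in PMC-306 (log2 difference 2.62, adjusted p = 0.0261 by limma). Its partner H2-Ob was at 2.26 CPM in PMC-303, 12 CPM in PMC-306 and 2.95 to 6.08 CPM in primary cultures, so that the lines lay on opposite sides. H2-DMa, a subunit of the peptide exchange factor DM, fell from 3.14 ± 0.535 CPM (SD, n = 6) to 1.44 and 2.11 CPM (log2 difference -0.79, adjusted p = 0.0349 by limma), whereas H2-DMb1 had 38.6 and 27.3 CPM against 29.9 to 35.4 CPM and did not pass. H2-Ab1, the β chain that pairs with H2-Aa, had 0.0823 CPM in PMC-303, 1.13 CPM in PMC-306 and 0.422 to 1.68 CPM in primary cultures and did not pass either. Of 9 proteases and turnover genes 6 were tested, 1 rose and 2 fell, against 18.3% of all genes tested that rose and 15.5% that fell. Ifi30, the lysosomal thiol reductase GILT, rose from 1.52 ± 0.51 CPM (SD, n = 6) to 6.54 CPM in PMC-303 and 25.5 in PMC-306 (log2 difference 3.06, adjusted p = 0.00201 by limma). The aspartic protease gene Ctsd fell from 4117 ± 746 CPM (SD, n = 6) to 1310 and 2449 CPM (log2 difference -1.18, adjusted p = 0.0106 by limma), and Marchf8, a ubiquitin ligase, by 0.25 on the log2 scale (adjusted p = 0.0234 by limma).

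Among 12 genes for the control of MHC transcription, all tested, 5 rose, 1 fell and 6 did not pass, Nlrc5 and Ciita among these. Their median log2 difference was 0.07. Of all genes tested 18.3% rose and 15.5% fell. Of the 6 RFX and NF-Y subunits of the complex on the X and Y boxes, 3 rose, 1 fell and 2 did not pass, Rfxank with a log2 difference of 0.11 (adjusted p = 0.598 by limma) and Nfya with 0.02 (adjusted p = 0.851 by limma). Rfx5 fell from 66.8 ± 5.79 CPM (SD, n = 6) to 51.2 and 42.4 CPM (log2 difference -0.51, adjusted p = 0.00795 by limma). Rfxap had a log2 difference of 0.58 (adjusted p = 0.00945 by limma), Nfyb of 0.45 (adjusted p = 0.00608 by limma) and Nfyc of 0.75 (adjusted p = 0.000799 by limma), all higher in the lines. Ezh2, also among the 5 that rose, encodes a histone methyltransferase that acts as a repressor and not as a transactivator. It rose from 36.3 ± 4.46 CPM (SD, n = 6) to 69.6 and 65.5 CPM (log2 difference 0.90, adjusted p = 0.0012 by limma).

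Of 16 interferon signalling genes 15 were tested, 2 rose, 3 fell and 10 did not pass, again a share near the 33.9% of all genes. Ifngr2, a chain of the interferon-γ receptor, rose from 4.26 ± 0.663 CPM (SD, n = 6) to 11.4 and 16.5 CPM (log2 difference 1.68, adjusted p = 0.000589 by limma) and Ifnar1, a chain of the type I receptor, by 0.43 on the log2 scale (adjusted p = 0.0308 by limma). Stat3, Irf2 and Irf9 fell by 0.69, 0.53 and 0.53 on the log2 scale (adjusted p of 0.027, 0.0374 and 0.009 by limma). Of 8 interferon genes 7 were at 0 counts in all libraries and 0 could be tested.

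Of 10 genes for ligands that act beside MHC molecules on T cells 8 were tested, 4 fell, 1 rose and 3 did not pass, with a median of -1.41. Of all genes tested 15.5% fell and 18.3% rose. Tnfsf4, which encodes OX40 ligand, fell from 9.72 ± 2.39 CPM (SD, n = 6) to 0.0823 CPM (2 counts) in PMC-303 and 1.33 in PMC-306 (adjusted p = 0.00156 by limma). Cd274, which encodes PD-L1, fell from 156 ± 19.5 CPM (SD, n = 6) to 53.2 and 78.2 CPM (log2 difference -1.26, adjusted p = 0.000799 by limma). Icosl fell by 1.00 on the log2 scale (adjusted p = 0.0137 by limma), Pdcd1lg2 had 0.0823 and 0.0982 CPM against 0.264 to 2.74 CPM (adjusted p = 0.0286 by limma), and Tnfsf9, which encodes 4-1BB ligand, rose by 0.88 on the log2 scale (adjusted p = 0.039 by limma). Of 10 genes for ligands of NK receptors 2 were tested and both rose, against 18.3% of all genes tested. Ulbp1 rose by 0.46 on the log2 scale (adjusted p = 0.0438 by limma) and Clec2d, a ligand of an inhibitory NK receptor, by 0.47 (adjusted p = 0.00387 by limma).

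**Figure D5:**
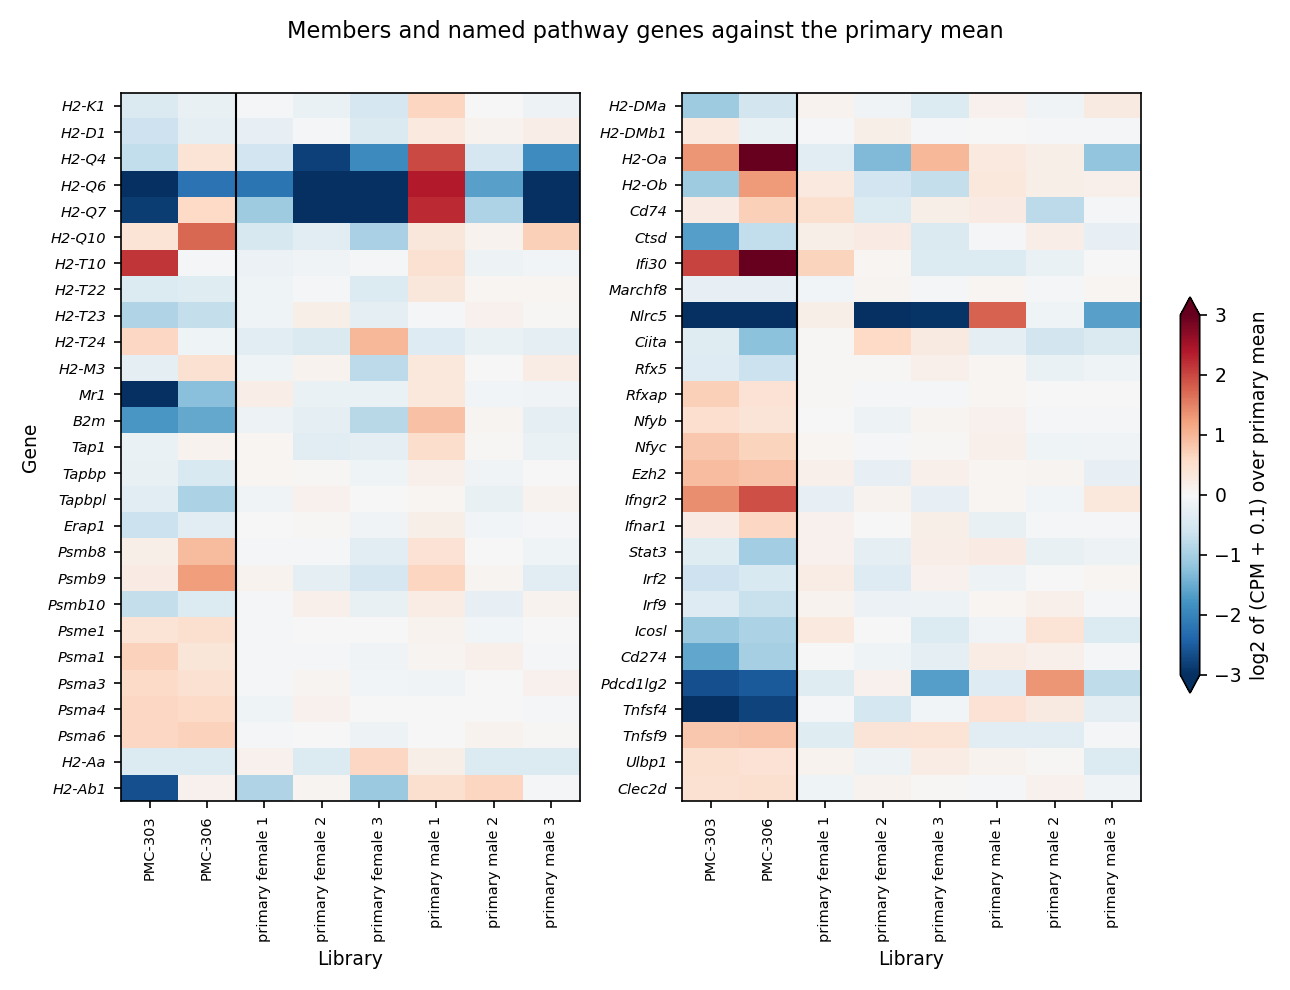
Members and named pathway genes as log2 of CPM + 0.1 over the primary mean, with 1 column per library, the lines left of the black line, and colours clipped at ±3. H2-Q4, H2-Q6, H2-Q7 and Nlrc5 are highest in male culture 1 among the primary cultures, and Psma4 and Psma6 are above all primary cultures in both lines.

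The genes outside the lists whose levels ran most like the mean standardized level of the 7 class I members over the 8 libraries, among 8671 genes that averaged 10 CPM or more, were mt-Atp8, Dph1, Get1, Sumf2 and Ap3s2 (Pearson r from 0.956 to 0.875, as a description). For the 3 class II members they were Sh2b1, Zfp770, 1110028F11Rik, Ago1 and Chd3 (r from 0.956 to 0.905). All 8 points share the scaling of their library, and the class II profile rests on a few counts per library.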

How the data were processed

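The 10 members, gene lists and tests were chosen with earlier results of these data known. RNA-seq of 8 cultures was used. Per the labels and the paper, stranded total RNA libraries were trimmed (Trim Galore 0.6.7), aligned to GRCm39 (STAR 2.7.9a) and quantified by the authors with Salmon 1.5.2, without pooling. For each gene and transcript the authors deposited estimated counts that are not normalized, and for genes TPM scaled for length and depth. A spreadsheet had rewritten 3.37% of the deposited gene count cells (22 of the 80 member cells), which were restored. Gene counts then differed from transcript sums by at most 1.53. Where a TPM cell had lost its decimal point, it was set to fit the counts (49 of the member cells had more than 1 reading). 0 columns were left without a sample.

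Because of the rewritten text cells no count test was run. Limma 3.58.1 in R 4.3.3 was used on log2(CPM + 0.1) with TMM library sizes, a mean-variance trend, two-sided tests and Benjamini-Hochberg adjustment over all genes tested, at a threshold of 0.05. The offset of 0.1 understates changes of low genes. Genes needed about 10 counts in 2 libraries (3 for the sexes) and 15 in all, so that 9 members were tested and H2-Aa was not. The script was tested on simulated data. Besides the members, list genes are named if they passed and both lines left the primary range in the same direction (at most 4 per direction and list), or if they are MHC chains with at least 1 CPM in a group. Any pair of primary libraries differed by more than sampling noise (chi-square divided by its degrees of freedom, 19.1 to 62.5). Gene coordinates and transcripts came from GENCODE release M39, promoters from RefSeq (GRCm38.p6). Python 3.11.15 was used for summaries.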

Additional observations from a re-analysis of the deposited data

Results flagged for a closer look

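In the 6 primary cultures, 51 reported genes were examined for a culture far from the others by Dixon's test. Its limit is exceeded in about 1 of 20 groups of independent, normally distributed values, which CPM of related genes need not be. Of the 51 genes 11 passed, 7 of them through male culture 1. The share over all genes was not determined, so these counts do not measure an excess. Male culture 1 had 499 CPM of H2-K1 (next 314), 89.4 CPM of Psmb8 (next 64.7), 8.07 CPM of Nlrc5 (next 2.62), 28 CPM of H2-Q4 (next 4.97), 8.54 CPM of H2-Q6 (next 0.436), 8.16 CPM of H2-Q7 (next 0.821) and 6.66 CPM of H2-T10 (next 4.59). The T cell genes Cd4 (3.22 CPM), Cd3g and Lck (0.255 CPM each) were also highest in that culture. On the same marker list Cd3e, Cd3d, Cd8a and Klrb1c were at 0 and Ncr1 was lowest in that culture, and the part of these markers was not tested. Female culture 3 had 27.4 CPM of H2-T24 (next 11.9), female culture 2 had 35.4 CPM of H2-DMb1 (next 31.4), female culture 1 had 2.48 CPM of Ifi30 (next 1.58) and male culture 2 had 2.74 CPM of Pdcd1lg2 (next 1.14).

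H2-Ob moved in opposite directions in the lines, at 12 CPM in PMC-306, above all primary cultures, and 2.26 CPM in PMC-303, below all of them. With 1 library per line this difference was not tested.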

How the results depend on the processing

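The fall of B2m in both lines kept its direction in all 17 alternatives and passed in all but the one without PMC-303 (adjusted p from 0.00441 to 0.0717 by limma), where the lone line is assumed to vary like the primary cultures. The number of members called was 1 and became 2 with library totals, which shift the median of all genes from -0.01 to 0.10 and add Psmb8 (log2 difference 0.69, adjusted p = 0.0433 by limma), and 3 with male primary cultures only, which add H2-D1 (-0.64, adjusted p = 0.0332 by limma) and Nlrc5 (-4.06, adjusted p = 0.0447 by limma). It was 1 to 3 when a library was left out. Deposited TPM shift the median of all genes to 0.13. Tap1 changed sign to 0.10 with library totals, 0.12 with TPM and 0.14 with female cultures only, and lay between -0.17 and 0.14 over all alternatives. The difference of Nlrc5 ranged from -4.06 to -1.24, with -1.89 for TPM, and it gave no value with female cultures only, where it was filtered out. With a 5-fold limit, PMC-306 and PMC-303 had 1 member each past the limit, and with TPM PMC-303 had 1. Without 1 primary library there were 4 to 5 members in PMC-306 and 2 in PMC-303. Between the sexes 0 members were called in every alternative, and Cd74 changed sign to -0.01 without male culture 2 (range without 1 culture from -0.01 to 0.53). Replicate numbers of the sexes do not mark shared animals, and deviations of same-numbered cultures correlated at 0.405, -0.216 and 0.284, so they were not treated as pairs. The replicate block gave 0 members called and 5 genes in all, against 6. Members with under 20 counts, such as H2-Aa and Cd74, are limited by depth. The causes of these shifts were not tested.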
